A study of Mus musculus with 6 samples.

Results

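The genes of 10 transcription factors of the secretory lineages of the intestine were examined in sorted ileal tuft cells. They were Atoh1, Gfi1, Spdef, Klf4, Sox4, Neurog3, Neurod1, Foxa1, Foxa2 and Creb3l1, chosen by name for their roles in goblet, Paneth and enteroendocrine fates, and all 10 were among the 23420 genes of the expression table. The 6 libraries formed 1 group, Gfi1b-eGFP mice of the C57BL/6J strain, each labelled as a separate mouse replicate. In these mice GFP is made from one copy of the Gfi1b locus, so that the sort depends on the promoter of a transcription factor gene that is itself a paralog of Gfi1, and the GFP-positive, EpCam-positive, CD45-negative live cells of the ileum were collected. No other genotype, tissue or cell fraction was analysed here, so every comparison below is of genes within libraries or of libraries with each other. The age of each mouse was not given in the labels.

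The tuft cell label was set beside marker genes. Of 14 tuft cell markers 13 were in the table, and all 13 were above 0 in every library and summed to between 6803 and 11651 TPM, a unit in which each library has the same total and each gene is corrected for its length. Markers of other cells were present in the same libraries, at 1063 to 5128 TPM for 8 goblet cell markers, 4099 to 27140 TPM for 8 Paneth cell markers, 387.4 to 538.9 TPM for 10 enteroendocrine markers, 7757 to 16298 TPM for 8 enterocyte markers, 335.9 to 812.7 TPM for 6 stem cell markers and 121.7 to 286.0 TPM for the 6 lymphocyte markers found of 7. Within libraries, the enterocyte list summed above the tuft list in every library. The Paneth list did so in replicates 4 to 6, at 27140, 16445 and 8786 TPM against 7954, 6859 and 6803 TPM. It lay below the tuft list in replicates 1 to 3, and the goblet list lay below it in every library. The lists differ in their genes, so their sums are not shares of cells. The most abundant gene was Zg16 for goblet cells, Defa24 for Paneth cells, Sct for enteroendocrine cells, Fabp1 for enterocytes, Olfm4 for stem cells and Ptprc, which encodes CD45, for lymphocytes. Of the lymphocyte list, Ptprc averaged 112.3 TPM, Gzma 68.3 TPM, Gzmb 13.9 TPM, Cd3g 6.95 TPM, Cd3e 4.38 TPM and Cd8a 2.83 TPM. Gzma ran from 10.43 TPM in replicate 1 to 140.67 and 157.73 TPM in replicates 5 and 6. In bulk RNA of this kind, a few cells of another type and a low level in every tuft cell cannot be told apart, and this holds for each gene described here. Library depth is unknown because TPM keeps no read number, so no counting interval is given, and a gene listed at 0 may be a gene that was not sampled.

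Secretory cells of the gut arise from crypt progenitors that escape Notch signalling. Atoh1, a basic helix-loop-helix factor, is the switch for the secretory fates in general, and factors acting after it separate the branches. Gfi1 favours goblet and Paneth over enteroendocrine cells, Spdef drives goblet and Paneth maturation, Klf4 is needed for goblet cell differentiation, and Neurog3 and then Neurod1 drive the enteroendocrine branch. Foxa1 and Foxa2 are paralogous forkhead factors that act in goblet and enteroendocrine cells, Sox4 is a SoxC factor of progenitors, and Creb3l1 is a membrane-bound bZIP factor of the secretory pathway that is released by proteolysis. Tuft cells are counted with the secretory cells by some criteria and depend on Pou2f3.

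The proximal promoters of 4 of these genes are shown because the genes span the range of levels described below, from Klf4, the most abundant, through Foxa1, to the enteroendocrine factors Neurod1 and Neurog3, the least abundant. Each is the 250 bases before the RefSeq start site on GRCm38.p6, written 5′ to 3′ on the strand of the gene. RefSeq start sites can differ from the GENCODE gene ends given below. The Foxa1 stretch lies within the GENCODE gene, and that of Neurod1 overlaps its gene in part. Capitals mark any of 4 short motifs. The first was the GC box, GGGCGG, which is bound by Sp and Krüppel-like factors. The second was the TATA box, TATAAA, found before some start sites. The third was an E-box, CAGCTG, of the kind bound by basic helix-loop-helix factors. The fourth was the N-box, CACNAG, bound by the Hes repressors of the Notch pathway. Both strands were searched and matches may overlap.
Klf4 (chr4:55532476-55532725, minus strand): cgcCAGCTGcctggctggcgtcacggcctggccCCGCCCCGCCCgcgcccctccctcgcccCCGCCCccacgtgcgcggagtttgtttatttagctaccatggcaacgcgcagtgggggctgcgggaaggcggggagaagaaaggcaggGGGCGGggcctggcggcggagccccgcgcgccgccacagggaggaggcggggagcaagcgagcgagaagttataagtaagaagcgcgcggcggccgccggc
Foxa1 (chr12:57546112-57546361, minus strand): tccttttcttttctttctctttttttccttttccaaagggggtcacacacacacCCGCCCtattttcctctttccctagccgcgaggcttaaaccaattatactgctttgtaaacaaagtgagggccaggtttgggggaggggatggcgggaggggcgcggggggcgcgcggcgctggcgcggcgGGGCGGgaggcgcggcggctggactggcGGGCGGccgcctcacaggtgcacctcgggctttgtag
Neurod1 (chr2:79456637-79456886, minus strand): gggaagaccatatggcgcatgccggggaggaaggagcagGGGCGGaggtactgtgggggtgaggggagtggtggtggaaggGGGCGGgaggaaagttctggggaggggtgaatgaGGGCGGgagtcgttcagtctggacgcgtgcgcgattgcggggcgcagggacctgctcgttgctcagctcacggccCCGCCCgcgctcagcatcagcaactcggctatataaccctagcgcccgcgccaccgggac
Neurog3 (chr10:62132840-62133089, plus strand): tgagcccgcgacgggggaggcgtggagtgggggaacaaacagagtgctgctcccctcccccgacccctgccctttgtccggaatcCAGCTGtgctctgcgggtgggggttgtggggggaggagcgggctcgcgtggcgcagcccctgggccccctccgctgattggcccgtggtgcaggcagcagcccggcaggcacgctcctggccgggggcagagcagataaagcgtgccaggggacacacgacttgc
The Klf4 and Neurod1 promoters each held 4 GC boxes, the Foxa1 promoter held 3 and the Neurog3 promoter held 0. The Klf4 and Neurog3 promoters each held 1 E-box of the form CAGCTG. Other forms of the E-box were not searched for and may occur in these sequences.

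RefSeq listed a promoter for 9 of the 10 genes. Among the first listed promoter of each, 4 of 9 held a GC box, against 32.7% of all 32851 mouse promoters of the same length. That background holds every listed promoter, also those of genes outside the expression table. Its median was 6 CpG dinucleotides, against 10 for 1 promoter per gene of the table, so the shares are not of like sets. Of the 9, 3 held the E-box CAGCTG (13.0% of all promoters), 2 held the N-box (36.7%) and 0 held the exact sequence TATAAA (12.4%). Variant forms of the TATA box and E-box were not counted, so a promoter without a match may still hold one. CpG dinucleotides numbered 32 in the Klf4 promoter, more than in 94.2% of promoters when 1 was taken for each gene of the table. They numbered 22 in that of Neurod1, 21 in that of Foxa1 and 18 in that of Neurog3. The promoter of Spdef held 7. RefSeq listed 3 promoters for Foxa2, with 6, 20 and 13 CpG dinucleotides and 0, 2 and 1 GC boxes, and the third also held 1 TATA box. Klf4 and Neurod1, near opposite ends of the RNA levels, had equal numbers of GC boxes. Whether these motifs relate to RNA levels was not tested.

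Of the 10 genes, 6 were listed above 0 in every library, namely Klf4, Creb3l1, Foxa1, Spdef, Atoh1 and Sox4, where 47.2% of all 23420 genes were. The same 6 genes reached 1 TPM in every library, as 39.9% of all genes did. The other 4, Foxa2, Gfi1, Neurod1 and Neurog3, were listed at 0 in between 1 and 5 libraries. The 10 genes together summed to 141.5 ± 23.5 TPM (SD, n = 6), and Klf4 alone made up 67.1% ± 8.63 of this sum (SD, n = 6).

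**Figure D1:**
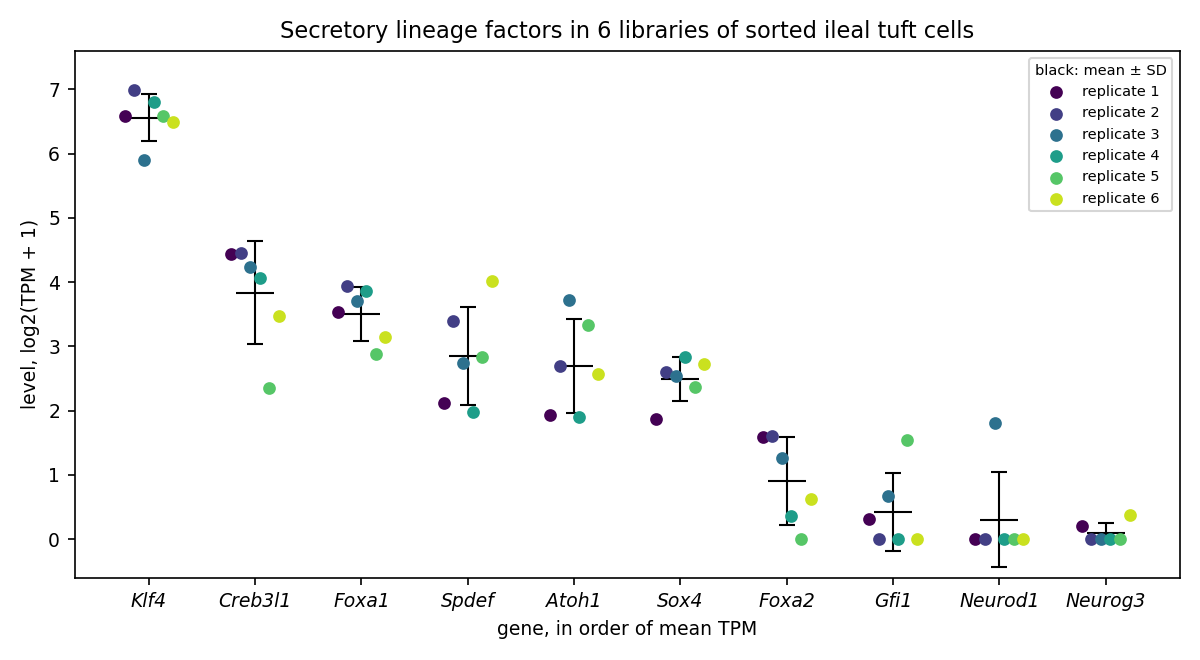
Levels of the 10 genes as log2(TPM + 1), with 1 point per library and the mean ± SD (n = 6) in black, in order of mean TPM. Klf4 lies above all other genes in each library, 5 genes lie between 1.87 and 4.45, and Foxa2, Gfi1, Neurod1 and Neurog3 lie at 1.82 or below.

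Of the goblet cell factors among the 10 genes, Klf4 was the most abundant in every library. Klf4 (ENSMUSG00000003032.8, chromosome 4 in GRCm38 coordinates, 55527143 to 55532466, minus strand, 5 exons) was at 95.17, 125.43, 58.62, 110.89, 94.78 and 89.37 TPM in replicate order from 1 to 6, and averaged 95.7 ± 22.5 TPM (SD, n = 6). It was lowest in replicate 3, which was still above the highest value of any of the other 9 genes in any library. Its percentile among the genes listed above 0 ran from 85.0 to 93.1 over the libraries. Spdef (ENSMUSG00000024215.14, chromosome 17, 27714352 to 27728955, minus strand, 6 exons), the goblet and Paneth maturation factor, was at 3.37, 9.56, 5.72, 2.95, 6.13 and 15.15 TPM and averaged 7.15 ± 4.58 TPM (SD, n = 6). It varied 5.14-fold and was highest in replicate 6, the library in which goblet markers were also highest, at 5128 TPM. Its next highest value, 9.56 TPM, was in replicate 2, where goblet markers were lowest, at 1063 TPM. The part of goblet cell RNA in these values was not tested. Creb3l1 (ENSMUSG00000027230.9, chromosome 2, 91982328 to 92024502, minus strand, 12 exons) was at 20.66, 20.85, 17.90, 15.80, 4.13 and 10.14 TPM and averaged 14.9 ± 6.59 TPM (SD, n = 6). It was the most abundant gene after Klf4 in 4 of 6 libraries, but lay below Atoh1, Foxa1, Spdef and Sox4 in replicate 5 and below Spdef in replicate 6.

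Atoh1 and Gfi1, which act in one path in other secretory cells, were at different levels. Atoh1 (ENSMUSG00000073043.5, chromosome 6, 64729125 to 64731245, plus strand, 1 exon) was at 2.82, 5.46, 12.20, 2.75, 9.10 and 4.97 TPM and averaged 6.22 ± 3.74 TPM (SD, n = 6). It was highest in replicates 3 and 5. Gfi1 (ENSMUSG00000029275.18, chromosome 5, 107716657 to 107726036, minus strand, 6 exons) had 0.25, 0.59 and 1.92 TPM in replicates 1, 3 and 5 and was listed at 0 in the remaining 3 libraries. Atoh1 exceeded Gfi1 in 6 of 6 libraries. The paralog Gfi1b, whose locus drives the GFP of the sort and which marks tuft cells, was at 108.7 ± 32.6 TPM (SD, n = 6), between 72.93 and 160.10 TPM. In the 3 libraries in which Gfi1 was listed above 0, Gfi1b had 49.1 to 640.4 times its TPM.

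The FOXA paralogs differed from one another in every library. Foxa1 (ENSMUSG00000035451.7, chromosome 12, 57540628 to 57546916, minus strand, 2 exons) was at 10.57, 14.33, 12.08, 13.52, 6.34 and 7.86 TPM and averaged 10.8 ± 3.16 TPM (SD, n = 6). Foxa2 (ENSMUSG00000037025.11, chromosome 2, 148042877 to 148046969, minus strand, 3 exons) was at 2.02, 2.06, 1.40, 0.28, 0 and 0.54 TPM. Foxa1 was higher by 2.60 ± 0.54 on the log2(TPM + 1) scale (SD, n = 6), and 5.23 to 48.3 times as high in the 5 libraries with Foxa2 above 0. Few sequences are common to both: 17 of the 3301 distinct 25-base words of Foxa1 transcripts also occur in Foxa2 transcripts. Foxa3, the third paralog, was at 6.04 ± 3.33 TPM (SD, n = 6), between 2.41 and 11.21 TPM.

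Neurog3 and Neurod1, the enteroendocrine factors among the 10 genes, were listed at 0 in most libraries, while Sox4 was listed above 0 in each. Neurog3 (ENSMUSG00000044312.4, chromosome 10, 62133090 to 62134763, plus strand, 2 exons), which starts the enteroendocrine program, was listed at 0.15 TPM in replicate 1, 0.30 TPM in replicate 6 and 0 in the other 4 libraries. Its exons share 273 bases with those of Fam241b on the opposite strand in GENCODE M21, and that gene (2010107G23Rik in the table) was at 16.6 ± 7.74 TPM (SD, n = 6). The strand setting is not given in the sources used here, so reads from the 2 genes may not be told apart. Neurod1 (ENSMUSG00000034701.9, chromosome 2, 79452521 to 79456751, minus strand, 2 exons), which acts after Neurog3, was listed at 2.52 TPM in replicate 3 and at 0 in the other 5 libraries. In replicate 3, 4 of the 10 enteroendocrine markers (Gip, Gcg, Cck and Nts) were at their highest and 2 (Chga and Sct) at their lowest, and the summed list, at 483.4 TPM, lay within the range of the other libraries. Of the 4, Gcg and Cck were highest by narrow margins, at 45.68 TPM against 45.54 TPM in replicate 2 and at 7.54 TPM against 7.5 TPM in replicate 5. In replicate 5, where Neurod1 was listed at 0, 3 of the 10 markers were at their highest. The summed list was mostly Sct, at 383.8 ± 50.5 TPM (SD, n = 6). Sox4 (ENSMUSG00000076431.4, chromosome 13, 28948919 to 28953713, minus strand, 1 exon) was at 2.65, 5.07, 4.82, 6.15, 4.15 and 5.64 TPM and averaged 4.75 ± 1.24 TPM (SD, n = 6), and varied 2.32-fold. A long noncoding gene on the opposite strand, Gm26735, overlaps 2616 of the 4795 exonic bases of Sox4, and 55.0% of the 25-base words of Sox4 occur in other transcripts, so its value is less certain than those of the other genes listed above 0 in every library.

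Genes were compared within each library by the difference in log2(TPM + 1), using the exact sign-flip test (two-sided, with 0.03125 as the lowest p that 6 libraries allow) and Benjamini-Hochberg adjustment over all 45 pairs. One gene was higher in 6 of 6 libraries in 30 of 45 pairs (66.7%), where 69.2% of all pairs of genes listed above 0 in any library had such an order, so the share of ordered pairs was near that of genes at large. Each of these 30 pairs had the smallest p, 0.03125, and an adjusted p of 0.046875 by the exact test. They consisted of the 9 pairs with Klf4, the 20 pairs of Creb3l1, Foxa1, Spdef, Atoh1 or Sox4 with one of the 4 genes near 0, and the pair of Foxa1 and Sox4.

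Klf4 exceeded Creb3l1, the next gene, by 2.72 ± 0.88 on the log2 scale (SD, n = 6), or 3.27 to 22.9 times in TPM. It exceeded Sox4 by 4.07 ± 0.48 (SD, n = 6). The order among the next 5 genes was mostly not resolved. Creb3l1 exceeded Foxa1 by 0.33 ± 0.48 (5 of 6 libraries, exact p = 0.15625, adjusted p = 0.190), and Foxa1 exceeded Spdef by 0.66 ± 0.99 (5 of 6 libraries, exact p = 0.15625, adjusted p = 0.190). Spdef exceeded Atoh1 by 0.16 ± 0.86 (4 of 6 libraries, exact p = 0.656, adjusted p = 0.687), and Atoh1 exceeded Sox4 by 0.20 ± 0.77 (4 of 6 libraries, exact p = 0.469, adjusted p = 0.502). Creb3l1 exceeded Spdef by 0.99 ± 1.24 in 4 of 6 libraries (exact p = 0.125, adjusted p = 0.161). The pairs given here among these 5 genes did not pass the exact sign-flip test, which with 6 libraries does not show that their levels are equal. For Creb3l1 and Spdef, which are not neighbours in the order, the exact Mann-Whitney test gave p = 0.0411 and adjusted p = 0.0544.

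Sox4 exceeded Foxa2 by 1.58 ± 0.88 on the log2 scale in 6 of 6 libraries (exact p = 0.03125, adjusted p = 0.046875). This adjusted p is the one shared by all 30 ordered pairs. The order of the genes was taken from these same libraries, so tests of neighbours are not independent of it. Atoh1 exceeded Gfi1 by 2.27 ± 0.58 and Neurog3 by 2.60 ± 0.80 (SD, n = 6 each), and the sizes depend on the pseudocount, since the lower gene was often at 0. At pseudocounts of 0.1 and 0.01 the difference of Sox4 from Foxa2 was 2.66 and 3.32, that of Atoh1 from Gfi1 4.28 and 6.03, and that of Foxa1 from Foxa2, given above as 2.60, 3.82 and 4.49. The 6 pairs within Foxa2, Gfi1, Neurod1 and Neurog3 did not pass the test. In 5 of these 6 pairs both genes were at 0 in at least 1 library, so the exact test could not go below p = 0.0625 and its failure there says nothing of whether the genes differ. Foxa2 was above Neurog3 in 5 libraries and tied at 0 in the other (exact p = 0.0625, adjusted p = 0.0879). Neurod1 exceeded Neurog3 in 1 library and lay below it in 2 (exact p = 1, adjusted p = 1).

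**Figure D2:**
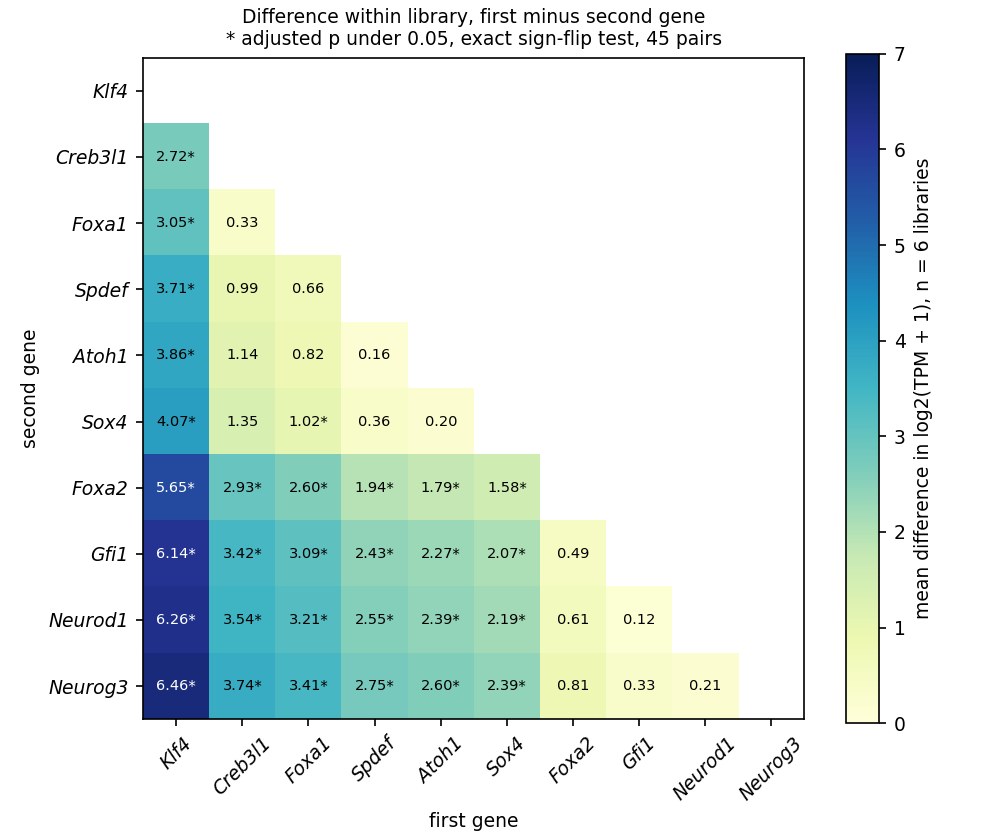
Mean difference in log2(TPM + 1) between the gene of the column and the gene of the row within 6 libraries, in order of mean TPM, with pairs of adjusted p under 0.05 by the exact sign-flip test starred. The Klf4 column is starred throughout, with differences of 2.72 to 6.46, and the block of 5 middle genes is starred only for Foxa1 and Sox4.

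Lists of related factors were set beside these genes. Of 13 further enteroendocrine factors, 2 had a mean of at least 1 TPM, where 51.4% of all genes did, and 4 (30.8%) were listed at 0 in every library, near the 32.9% of all genes. The 2 were St18, at 36.5 ± 10.1 TPM, and Rfx3, at 5.07 ± 1.81 TPM (SD, n = 6 each). The other 11, among them Insm1, Pax4, Pax6, Nkx2-2, Isl1 and Rfx6, did not exceed 1.82 TPM in any library. St18, a zinc finger factor, was at 23.59 TPM or more in every library and so above Neurog3 and Neurod1 throughout.

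Of 6 further goblet and Paneth cell factors, 6 had a mean of at least 1 TPM and 3 a mean of at least 10 TPM, which 29.8% of all genes had. Elf3, an epithelial ETS factor, was at 495.0 ± 133 TPM, Sox9, a factor of Paneth, stem and tuft cells, was at 187.1 ± 60.2 TPM, and Xbp1, a regulator of the unfolded protein response in secretory cells, was at 78.5 ± 28.8 TPM (SD, n = 6 each). Elf3 had 26.8 to 185.8 times the TPM of Spdef, another ETS factor. Bhlha15, a factor of mature secretory cells, was listed at 0 in 3 libraries and did not exceed 3.18 TPM. The 3 E proteins, with which basic helix-loop-helix factors such as Atoh1 pair, were all listed above 0 in every library, with Tcf12 at 15.7 ± 2.20 TPM and Tcf3 at 12.3 ± 4.05 TPM (SD, n = 6 each).

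Among 21 paralogs of the 10 genes, 12 (57.1%) had a mean of at least 1 TPM and 5 (23.8%) were listed at 0 in every library, against 51.4% and 32.9% of all genes. The 5 were Sox11, Neurog1, Neurog2, Neurod4 and Atoh7. Klf4 was not the leading Krüppel-like factor, because Klf5, a factor of proliferating crypt cells, was at 197.4 ± 61.1 TPM and exceeded it in 6 of 6 libraries, by 1.26 to 4.80 times. Klf6 was at 76.3 ± 11.6 TPM and Klf3 at 70.4 ± 14.6 TPM (SD, n = 6 each). Creb3 was at 34.3 ± 13.0 TPM, against 14.9 TPM for its relative Creb3l1, and the ETS factor Ehf was at 188.1 ± 55.7 TPM (SD, n = 6 each). The basic helix-loop-helix paralogs of Neurog3, Neurod1 and Atoh1 did not exceed 1.17 TPM in any library, and of the genes listed here from these 3 families, Atoh1 was the one above 0 in every library.

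**Figure D3:**
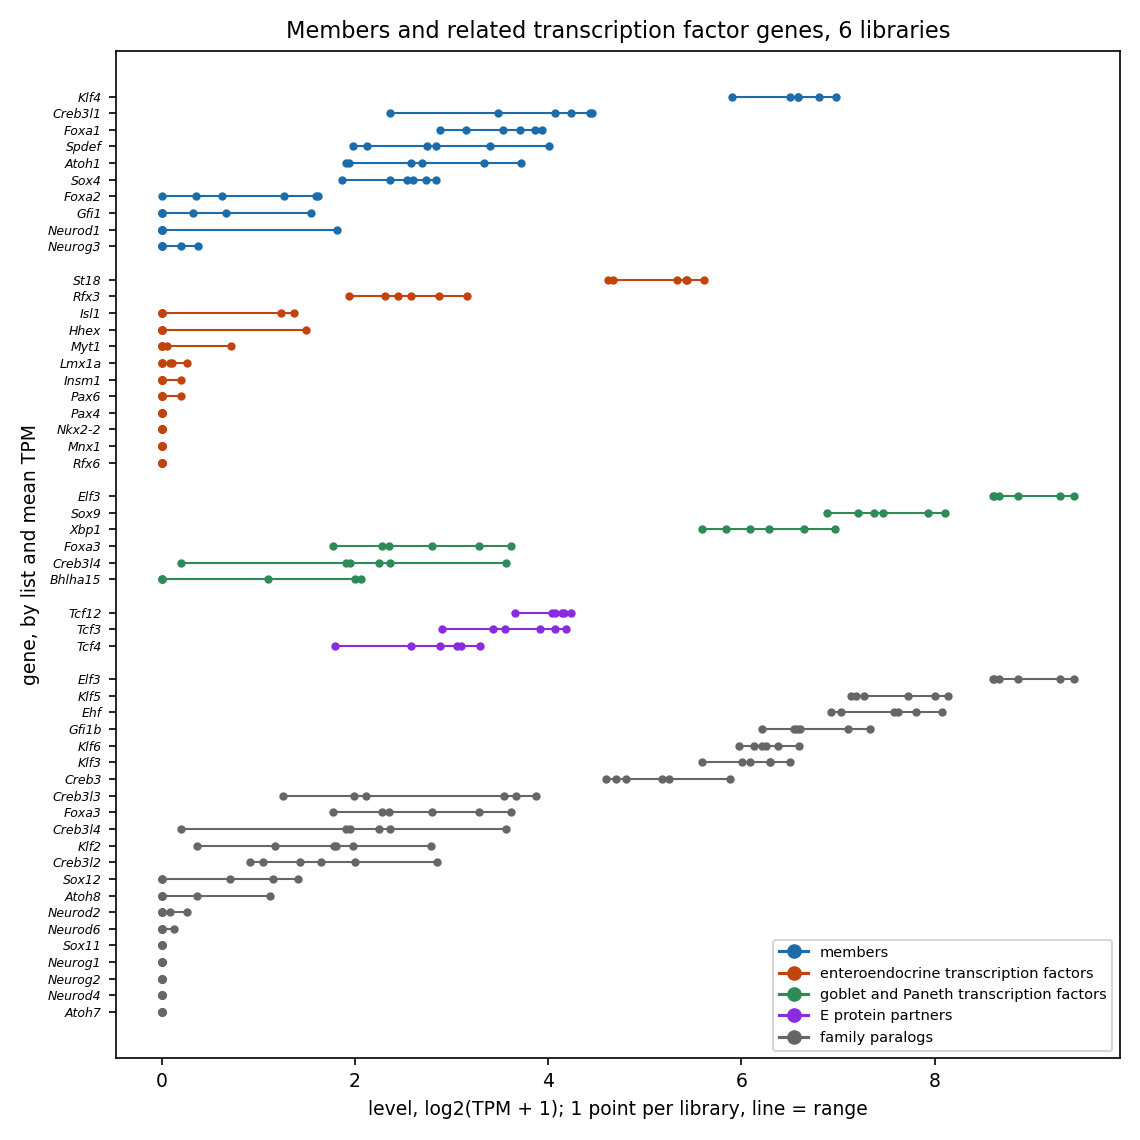
Levels of the 10 genes and of genes from 4 lists of related factors as log2(TPM + 1), with 1 point per library and a line over the range. Of the further enteroendocrine factors, those other than St18 and Rfx3 do not exceed 1.82 TPM, while Elf3, Sox9 and Xbp1 lie above Spdef and Atoh1 in every library.

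To see whether the genes followed the RNA of a lineage, each was correlated across the 6 libraries with the median log2(TPM + 1) of the tuft, goblet, Paneth and enteroendocrine markers, which gave 40 relations. By Pearson's r with exact permutation over 720 pairings, 0 of 40 relations had an unadjusted p under 0.05 and 0 passed after Benjamini-Hochberg adjustment, where the tuft, goblet, Paneth and enteroendocrine lists reached an unadjusted p under 0.05 with 7.85%, 7.98%, 5.8% and 6.39% of all genes averaging 1 TPM or more. Unlike those genes, Gfi1, Neurod1 and Neurog3 averaged less than 1 TPM. Neurod1 was above 0 in 1 library, so none of its relations could reach an unadjusted p under 0.05 by permutation. With 720 pairings, 1 relation alone could not pass the adjustment over 40, even at the smallest p possible. By Spearman's rho, 2 of 40 had an unadjusted p under 0.05 and 0 passed after adjustment. The 2 were Klf4 with the tuft markers (rho = 0.886, exact permutation p = 0.0333, adjusted p = 0.667; r = 0.589, exact p = 0.226, adjusted p = 0.702) and Creb3l1 with the goblet markers, in the negative direction (rho = -0.886, exact permutation p = 0.0333, adjusted p = 0.667; r = -0.571, exact p = 0.247, adjusted p = 0.702). Without the 2 libraries farthest from the median of the list, r was 0.447 for the first and -0.626 for the second.

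Spdef gave r = 0.416 with the goblet markers (rho = 0.371, exact permutation p = 0.428 and 0.497, adjusted p = 0.702 and 0.860; r = 0.620 without replicates 2 and 6). Atoh1 gave r = 0.785 with the enteroendocrine markers (exact permutation p = 0.0597, adjusted p = 0.702; rho = 0.543, exact p = 0.297, adjusted p = 0.749; r = 0.710 without replicates 1 and 5). With 6 libraries these relations were not shown to differ from 0. The median level of the enteroendocrine list lay near the floor, and was 0 in replicate 1, where 6 of its 10 markers were listed at 0.

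The libraries fell into replicates 1 to 3 and 4 to 6 by the abundance of Gm20594, at 15588 to 21283 and 51805 to 56441 TPM, and by Rn45s, the ribosomal RNA precursor, at 23.1% to 25.1% and 26.7% to 32.6% of all TPM. No label explains this split. Centred within these sets, over 36 pairings, r was 0.988 for Klf4 with the tuft markers (exact permutation p = 0.0278) and -0.836 for Klf4 with the goblet markers (exact p = 0.0278), the 2 of 40 relations under 0.05 before adjustment. Both p-values are the smallest that 36 pairings allow, and 2 relations at that p could not pass an adjustment over 40. Centred r was -0.100 for Creb3l1 with the goblet markers (exact p = 0.861) and 0.467 for Spdef with the goblet markers (exact p = 0.389). It was 0.907 for Atoh1 with the enteroendocrine markers (exact p = 0.0833).

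**Figure D4:**
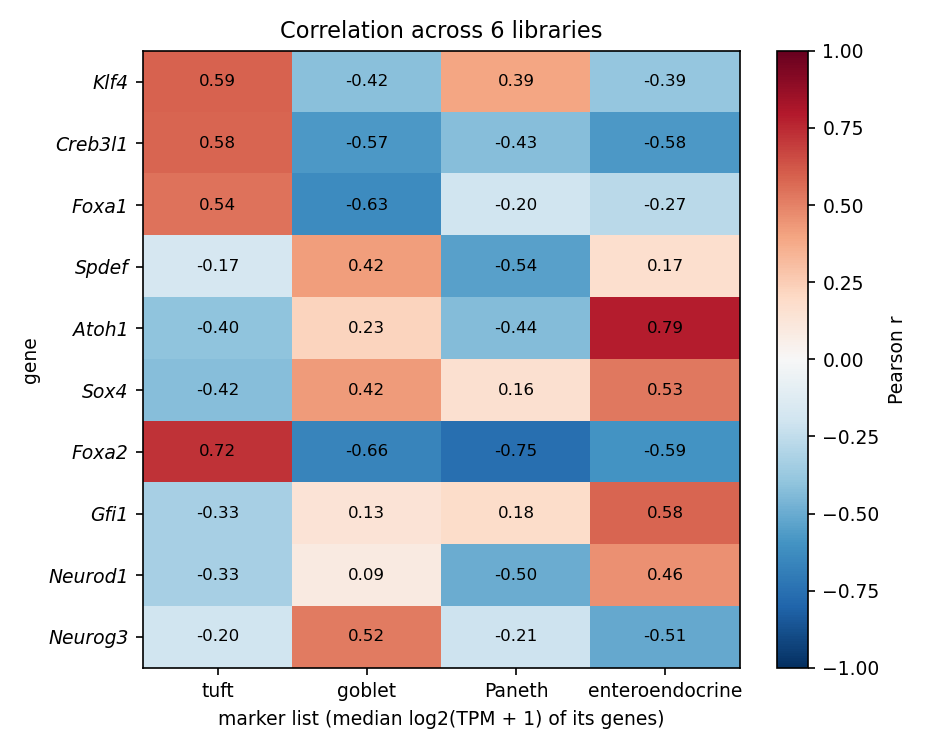
Pearson correlation across 6 libraries of each gene, as log2(TPM + 1), with the median log2(TPM + 1) of 4 marker lists. The values run from -0.75 for Foxa2 with the Paneth list to 0.79 for Atoh1 with the enteroendocrine list, and none passes the exact permutation test.

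Among the 45 pairs of these genes, 2 correlated across libraries at an unadjusted p under 0.05 by Pearson's r (4.44% of pairs) and 0 after adjustment. Creb3l1 was one gene of both pairs, and 9.11% of all genes averaging 1 TPM or more correlated with Creb3l1 at that threshold, 8.79% with Foxa2 and 6.03% with Foxa1. Neurod1, above 0 in 1 library, could not reach that threshold in any pair. Over 720 pairings, 1 pair of genes alone could not pass the adjustment over 45, even at the smallest p possible. Creb3l1 rose with Foxa2 before adjustment (r = 0.839, exact permutation p = 0.0125, adjusted p = 0.531; rho = 0.943, exact p = 0.0167, adjusted p = 0.750) and with Foxa1 by r only (r = 0.888, exact permutation p = 0.0236, adjusted p = 0.531; rho = 0.771, exact p = 0.103, adjusted p = 1). Without the 2 libraries farthest from the median of the second gene, r was 0.684 for Foxa2 and -0.253 for Foxa1, so the relation with Foxa1 rests on replicates 5 and 6. Centred within replicates 1 to 3 and 4 to 6, r was 0.662 for Foxa2 (exact permutation p = 0.361) and 0.843 for Foxa1 (exact p = 0.25). Foxa1 and Foxa2 gave r = 0.614 (exact permutation p = 0.221) and rho = 0.600 (exact p = 0.242), with r = -0.0273 without replicates 2 and 5. Atoh1 and Gfi1 gave r = 0.641 (exact p = 0.167) and rho = 0.638 (exact p = 0.200), with r = -0.552 without replicates 3 and 5. Atoh1 and Spdef gave r = 0.349 (exact p = 0.496) and rho = 0.429 (exact p = 0.419), with r = 0.332 without replicates 3 and 4. The adjusted p of these 3 relations was 0.938 for the r of Atoh1 with Gfi1 and 1 for the other values.

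Creb3l1 and Foxa2 were also the 2 of the 10 genes whose values did not overlap between replicates 1 to 3 and replicates 4 to 6, both higher in the former. Creb3l1 was at 19.8 ± 1.65 TPM in replicates 1 to 3 and 10.0 ± 5.84 TPM in replicates 4 to 6 (SD, n = 3 each). Foxa2 was at 1.40 TPM or more in replicates 1 to 3 and at 0.54 TPM or less in replicates 4 to 6. Of all genes averaging 1 TPM or more, 12.8% were higher in replicates 1 to 3 in this way and 3.50% in replicates 4 to 6, and 16.3% did not overlap in either direction. After median-of-ratios scaling the lowest value of replicates 1 to 3 and the highest of replicates 4 to 6 were 16.2 and 16.0 TPM for Creb3l1, and 1.27 and 0.568 TPM for Foxa2, where 6.38% of genes were higher in replicates 1 to 3.

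Over the 6 libraries, the genes whose pattern was most like that of Klf4 were Ash1l (r = 0.995) and Deaf1 (r = 0.993), at 20.9 ± 4.73 and 21.8 ± 8.16 TPM. Those most like Creb3l1 were Gipc2 (r = 0.996), at 184.5 ± 33.2 TPM, and Amn1 (r = 0.994), at 12.8 ± 3.77 TPM. Those most like Foxa1 were Cnot2 (r = 0.996), at 33.0 ± 11.3 TPM, and Hiat1 (r = 0.986), at 35.3 ± 7.19 TPM (SD, n = 6 each). These were the highest of 6985 genes averaging 10 TPM or more, of which 45, 264 and 112 had r above 0.9 with Klf4, Creb3l1 and Foxa1, so the likeness is a description of 6 points and no p is given.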

How the data were processed

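RNA of sorted ileal tuft cells in 6 libraries, each labelled as a mouse replicate, was amplified by a modified SMART-Seq2 protocol and sequenced as paired-end reads. Reads were mapped by the authors to mm10 transcripts (UCSC) with Bowtie, and the deposited values are TPM that RSEM estimated. The submitters' processing notes also name TopHat, without its role. The strand setting is not given in the sources used here. Columns were matched to replicates by number. TPM keeps no depth, so no count model was run.

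Values were used on the log2(TPM + 1) scale, with a pseudocount of 1. Pairs of genes were compared by exact sign-flip tests (64 assignments), and relations across libraries by exact permutation (720 pairings), each adjusted by the Benjamini-Hochberg method within its family. The Mann-Whitney test named in the study was an alternative, as were other pseudocounts, low-value filters, scalings and leaving out each library. The permutation test was tested on simulated data, where 4.85% of the unchanged genes among 12032 had p under 0.05. Genes named are the 10 factors, related factors averaging 10 TPM or more, the leading gene of each marker list other than the tuft cell list, the nearest genes by r to the 3 most abundant factors, and Gfi1b. Other related factors named in passing, Fam241b, the 5 enteroendocrine markers named beside Neurod1 other than Sct, the lymphocyte markers Cd3e, Cd3g, Cd8a, Gzma and Gzmb, Gm20594 and Rn45s, were chosen after their values were seen. Some genes of the lists are not reported here by name or in the figures. The members and lists were chosen with earlier results of these data known. Gene models are from GENCODE M21 (GRCm38, the assembly of mm10), matched by symbol. Promoters are from RefSeq. Scripts ran in Python 3.11.15. They used pandas 2.3.3 and numpy 2.4.6 for the tables, and figures were drawn with matplotlib 3.10.9.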

Additional observations from a re-analysis of the deposited data

Results flagged for a closer look

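Of 14 measures screened, namely the 10 genes and the 4 marker lists, 2 had a library far from the others by Dixon's ratio of the gap to the whole range, with a critical value of 0.625 for 6 libraries. Chance flags about 1 in 20 groups, or 0.7 of 14. Neurod1 was at 2.52 TPM in replicate 3 and listed at 0 in all others, a ratio of 1, which any gene above 0 in a single library reaches, and its mean without replicate 3 is 0. Gfi1 was at 1.92 TPM in replicate 5 and at most 0.59 TPM elsewhere, a ratio of 0.693, and its mean went from 0.46 to 0.168 TPM without replicate 5.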

How the results depend on the processing

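The count of 30 ordered pairs was 30 under each pseudocount, filter, scaling and the Mann-Whitney test. Neither scaling nor the pseudocount can change which gene of a library is higher. The lowest value above 0 among the 10 genes was 0.15 TPM, so the filter at 0.1 TPM changed no value. The constancy of the count under these settings is therefore no sign of stability. With 5 libraries the exact sign-flip test cannot go below p = 0.0625. The 6 genes above 0 in every library became 2 at a minimum of 5 TPM. The median of the 10 mean levels went from 5.48 to 7.995 TPM without Rn45s and Gm20594, which raises every gene by 0.41 to 0.69 on the log2 scale, and lay between 4.88 and 6.03 TPM with 1 library left out.

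Relations with the marker lists at an unadjusted p under 0.05 numbered 0, but 2 by Spearman's rho, 2 when centred within replicates 1 to 3 and 4 to 6, 1 after median-of-ratios scaling and 0 to 1 with 1 library left out. Relations between the 10 genes numbered 2, but 1 by Spearman's rho, 0 when centred and 0 to 4 with 1 library left out, with 0 without replicate 5. After adjustment all these counts were 0. With 720 pairings or fewer, 1 relation alone could not pass the adjustment, so these counts of 0 do not show that no relation exists. The differences that changed sign were small. Neurod1 minus Neurog3 went to -0.16 at a pseudocount of 0.01 and ranged from -0.12 (without replicate 3) to 0.32 with 1 library left out. Gfi1 minus Neurod1 ranged from -0.16 (without replicate 5) to 0.37, and Spdef minus Atoh1 from -0.10 (without replicate 6) to 0.38. No paired analysis was possible because the libraries form 1 group, and the sign-flip tests already pair genes within a library. How far zeros reflect shallow sequencing cannot be given from TPM.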
